A study of Mus musculus with 6 samples.

Results

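The genes described here are the 3 malic enzymes (Me1, Me2 and Me3) and 7 other genes of the pyruvate cycles: pyruvate carboxylase (Pcx), the cytosolic malate dehydrogenase (Mdh1), the NADP-dependent isocitrate dehydrogenases (Idh1 and Idh2) and the mitochondrial carriers Slc25a1, Slc25a10 and Slc25a11. They were chosen by their GENCODE vM21 gene symbol, and make up 10 of 54119 annotated genes. All 10 passed the filter on low counts, which left 16430 genes to test. The RNA came from whole pancreatic islets, picked by hand at postnatal day 24 from male mice of the C57BL/6 strain, with 1 library per mouse. The knockout group (n = 3) is labelled Dpy30 knockout and the control group (n = 3) is labelled control. DPY30 is a common subunit of the histone H3 lysine 4 methyltransferase complexes, and the series concerns the role of trimethylation at that residue as pancreatic endocrine cells become functionally mature. Neither the Cre line, and so the cells that lost the gene, nor the exon removed is named in the labels, which give no genotype for the control mice beyond that word. The column headers of the authors' deposited gene values call the control libraries WT, without further detail. P-values measure the spread between these mice.

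In a pyruvate cycle, pyruvate carboxylase turns mitochondrial pyruvate into oxaloacetate, carbon leaves the mitochondrion as malate, citrate or isocitrate, and malic enzymes or isocitrate dehydrogenase release it again while reducing NADP or NAD. ME1 is the cytosolic, NADP-dependent malic enzyme, ME2 is mitochondrial and uses mainly NAD, and ME3 is mitochondrial and NADP-dependent. Rodent beta cells are known for high pyruvate carboxylase activity, and these cycles have been studied there as a source of signals that couple glucose metabolism to insulin secretion.

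Total estimated reads were 17131515 to 23976598 in the knockout libraries and 24575889 to 25354384 in the control libraries. Dpy30 reads assigned to transcripts without exon 4 made up 82.2%, 81.0% and 80.5% in the knockout libraries, against 5.24%, 0.438% and 3.78% in the control libraries. The libraries thus separated by label at this exon, which the labels do not name. The summed Dpy30 reads were not called lower in the knockout (log2 fold change 0.40, adjusted p = 0.298 in edgeR's quasi-likelihood test). Ins1 and Ins2 together took 6.48% to 9.63% of the reads in knockout libraries and 13.6% to 21.8% in control libraries. Knockout library 2 stood apart, with 14.7% of its reads on Gm42418, against at most 0.235% in each of the other 5 libraries. Levels are therefore given between groups as CPM, counts relative to a library total scaled by the trimmed mean of M-values (TMM), and between genes as TPM, which allows for transcript length. A call is an adjusted p below 0.05 in edgeR's quasi-likelihood test, adjusted by Benjamini-Hochberg over all tested genes.

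Me3 rose in the knockout islets, and it was the only one of the 10 genes that passed the test. By the same test 9.95% of all tested genes were called, 4.10% as higher and 5.84% as lower in the knockout. The knockout and control values did not overlap for 3 of the 10 genes, Me2 and Me3 being higher and Slc25a1 lower in the knockout, and did not overlap for 34.8% of all tested genes. Both shares of members lie near the background. The median log2 fold change was 0.10 over the 10 genes and 0.006 over all tested genes. The labels say that whole islets were used, so fewer cells of a type and less RNA per cell cannot be told apart.

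**Figure D1:**
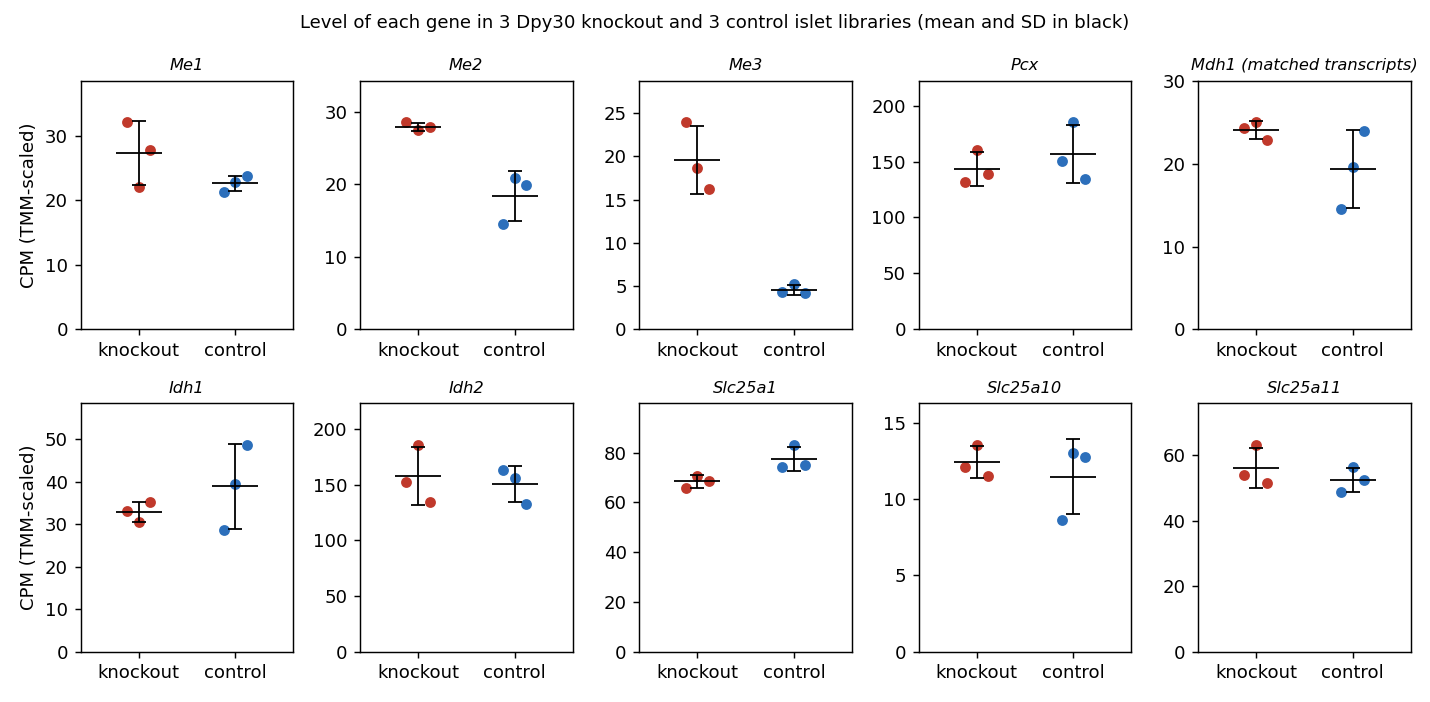
TMM-scaled CPM of each gene in 3 Dpy30 knockout and 3 control libraries, 1 point per library, with the mean and SD as black bars and each axis starting at 0. Me3 lies between 16.2 and 23.9 CPM in the knockout libraries, all above the control libraries at 4.19 to 5.25 CPM, and most other panels overlap.

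Me3 lies on chromosome 7 (GRCm38, 89632392 to 89854359, plus strand). Its level was 23.9, 18.7 and 16.2 CPM in the knockout libraries, against 4.26, 5.25 and 4.19 CPM in the control libraries. The lowest knockout library was thus far above the highest control library. These values rest on 596, 296 and 431 estimated reads in the knockout libraries and 102, 122 and 102 in the control libraries. The log2 fold change was 2.10 with a standard error of 0.22 (4.29-fold, adjusted p = 0.0021). Of the 674 genes called higher in the knockout, 152 had a log2 fold change at least as large. Leaving out each library in turn kept the call in 6 of 6 fits, with log2 fold changes of 1.93 to 2.22 and adjusted p of 0.00805 to 0.0123. The authors' deposited table gives Me3 a log2 fold change of 2.11 (adjusted p = 2.73e-16).

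Markers of some other cell types differed between the groups as well. The summed levels did not overlap for the endothelial, ductal, adipocyte (nearly all Fabp4) and islet endocrine lists. They overlapped for the mesenchymal, immune, Schwann cell and acinar lists. Of all tested genes 4.10% were called higher and 5.84% lower. Endothelial markers summed to 549 to 735 CPM in the knockout libraries and 385 to 491 CPM in the control libraries, with 3 of 5 called higher. Mesenchymal markers summed to 342 to 720 CPM in the knockout libraries and 193 to 417 CPM in the control libraries, with 1 of 7 called higher. Ductal markers summed to 50.5 to 60.9 CPM in the knockout libraries and 31.5 to 42.7 CPM in the control libraries, with 1 of the 4 tested called higher. Immune markers summed to 33.8 to 47.7 CPM in the knockout libraries and 20.6 to 34.8 CPM in the control libraries, with 1 of 5 called higher, and none of the 3 Schwann cell markers was called (16.3 to 28.7 CPM in the knockout libraries, 14.1 to 23.3 CPM in the control libraries). Of the 6 adipocyte markers only Fabp4 was tested and was called higher, and Cfd and Lep had no read in any library. The list summed to 18.1 to 29.7 CPM in the knockout libraries and 5.30 to 6.61 CPM in the control libraries. Nearly all of this sum was Fabp4, as Adipoq, Plin1 and Retn each had at most 0.126 CPM in any library. Plin1 overlapped between the groups, and whether adipocytes differed was not tested. Acinar markers summed to 2447 to 15346 CPM in the knockout libraries and 1004 to 3593 CPM in the control libraries, and none of the 10 tested was called. Islet endocrine markers, insulin among them, summed to 105950 to 155930 CPM in the knockout libraries and 237080 to 316940 CPM in the control libraries. The 2 of 7 called lower were Sst (adjusted p = 0.0217) and Ppy (adjusted p = 0.00694). Ins1 (adjusted p = 0.0779), Ins2 (adjusted p = 0.069), Gcg (adjusted p = 0.0629), Iapp and Chga were not called. When the acinar level entered as a covariate, Me3 kept a log2 fold change of 2.11 (adjusted p = 0.0215), and the part of the other cell types in its difference was not tested.

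The Me3 reads fell mostly on transcripts that are not annotated as coding. Of its 7 annotated transcripts, Me3-202 (14 exons, 4485 bases) is the only one annotated as protein coding, and it held 15.3%, 13.2% and 10.9% of the Me3 reads in the knockout libraries, against 5.78%, 9.63% and 11.5% in the control libraries. These shares overlap (13.1 ± 2.24% in knockout and 8.98 ± 2.93% in control libraries, SD, n = 3 each, two-sided exact permutation p = 0.2). In the other genes the coding transcripts held 82.0% to 100% of the reads, leaving aside Mdh1, whose matched transcripts hold only a small part of its reads. The transcript with the most Me3 reads was Me3-203, an 11-exon transcript with a retained intron, at 7.64 ± 1.28 CPM in knockout libraries and 1.97 ± 0.189 CPM in control libraries (SD, n = 3 each). Next came Me3-201, a 9-exon processed transcript that begins far downstream in the gene, at 5.22 ± 1.15 CPM in knockout libraries and 1.14 ± 0.186 CPM in control libraries.

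The coding transcript Me3-202 itself had 3.67, 2.47 and 1.76 CPM in the knockout libraries, against 0.246, 0.508 and 0.483 CPM in the control libraries. Its groups did not overlap, with a ratio of means of 6.39, on 91.5, 39.2 and 46.8 estimated reads in the knockout libraries and 5.90, 11.8 and 11.8 in the control libraries. All 7 Me3 transcripts were higher in each knockout library than in any control library, with ratios of means between 2.24 and 6.44. Salmon divides reads between overlapping transcripts by estimate, so the values of single transcripts are less certain than the gene sum.

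**Figure D2:**
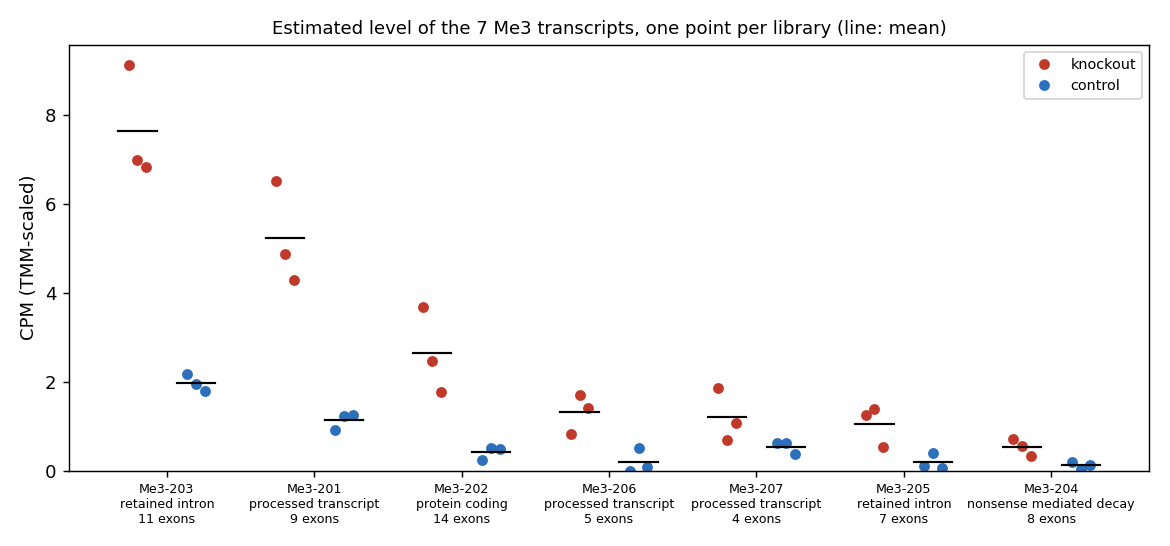
Estimated TMM-scaled CPM of the 7 annotated Me3 transcripts, 1 point per library with the group mean as a line. The retained-intron transcript Me3-203 has the highest level in both groups, and the only coding transcript, Me3-202, lies at 1.76 to 3.67 CPM in knockout and 0.246 to 0.508 CPM in control libraries.

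The promoter of Me3 is shown because it belongs to the gene that changed, that of Me1 as its cytosolic counterpart, and the pair of Pcx starts because transcripts of that gene differ in their first exon. RefSeq gives windows of 250 bases before to 50 bases after a start for 9 of the 10 genes, 12 windows in all (GRCm38.p6). The sequences are written in the direction of the gene, with CG dinucleotides in capitals, and stop before the RefSeq start or the start of a coding transcript.
Me3, chr7:89632568-89632702, plus strand: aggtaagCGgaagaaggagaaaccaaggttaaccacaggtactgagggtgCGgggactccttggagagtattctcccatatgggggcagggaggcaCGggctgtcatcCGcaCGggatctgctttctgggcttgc
Me1, chr9:86695954-86696164, minus strand: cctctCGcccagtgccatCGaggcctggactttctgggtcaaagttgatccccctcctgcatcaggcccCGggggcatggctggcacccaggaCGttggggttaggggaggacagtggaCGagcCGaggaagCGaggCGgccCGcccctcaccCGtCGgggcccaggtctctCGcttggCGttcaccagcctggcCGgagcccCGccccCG
Pcx, upstream start, chr19:4510222-4510471, plus strand: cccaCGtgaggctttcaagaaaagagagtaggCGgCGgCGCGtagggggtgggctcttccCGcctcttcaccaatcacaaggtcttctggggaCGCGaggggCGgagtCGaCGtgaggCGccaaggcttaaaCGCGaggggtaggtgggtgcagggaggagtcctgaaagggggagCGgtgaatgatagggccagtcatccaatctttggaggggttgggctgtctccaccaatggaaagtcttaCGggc
Pcx, internal start, chr19:4594069-4594318, plus strand: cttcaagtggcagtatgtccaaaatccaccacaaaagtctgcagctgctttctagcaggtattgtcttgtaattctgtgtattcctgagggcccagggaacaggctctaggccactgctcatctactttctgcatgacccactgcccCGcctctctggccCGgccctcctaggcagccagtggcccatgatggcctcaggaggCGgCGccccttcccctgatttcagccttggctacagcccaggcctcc
The Me3 stretch lies inside the annotated span of the gene, where the noncoding transcripts Me3-205 and Me3-207 begin further upstream. The whole Me3 window holds 15 CG dinucleotides, against 35 in the main Me1 window, 20 in the upstream Pcx window and 5 in the internal Pcx window. The median over 32851 windows of all genes is 7, so Me3 sits above that median and below most of the other windows of these genes. The E-box CACGTG, searched on both strands, occurs in the upstream Pcx window, in the first bases printed, and in that of Slc25a1, and in 7.15% of all windows. The antioxidant response element core TGACNNNGC, searched on both strands, occurs in the main Me1 window and in that of Mdh1, and in 12.4% of all windows.

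An antisense gene, A230065N10Rik, covers the same region on the minus strand (chromosome 7, 89632097 to 89633124), and was looked at after its values were seen. It had 3.09, 4.10 and 2.22 CPM in the knockout libraries and 0.584, 1.59 and 0.534 CPM in the control libraries. The groups did not overlap, and the log2 fold change of 1.78 with a standard error of 0.48 missed the threshold (adjusted p = 0.056). The library kit keeps strand, per the labels' protocols, but the quantification's strand setting was not given in the sources used here. Reads of the pair may therefore not be fully told apart where they overlap.

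Me2 lies on chromosome 18 (73769903 to 73815449, minus strand). It had 28.5, 27.4 and 27.9 CPM in the knockout libraries, against 14.4, 20.8 and 19.8 CPM in the control libraries. The groups did not overlap, and the knockout libraries lay close together. The log2 fold change was 0.61 with a standard error of 0.17 (adjusted p = 0.0601), which missed the threshold. In a fit with replicate number as a block, the log2 fold change was 0.62 and passed (adjusted p = 0.0457), where 6.93% of all tested genes were called higher. DESeq2 also passed it (log2 fold change 0.60, adjusted p = 0.0214), with 7.29% of all tested genes called higher. Me2 did not pass when any 1 library was left out (6 fits, adjusted p = 0.0941 to 0.145). The authors' deposited table lists Me2 at a log2 fold change of 0.56 (adjusted p = 0.0268).

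Me1 lies on chromosome 9 (86581371 to 86695953, minus strand). Its level was 32.1, 22.1 and 27.8 CPM in the knockout libraries, against 21.3, 22.8 and 23.7 CPM in the control libraries. Knockout library 2 lay within the control range and the other knockout libraries above it. The log2 fold change was 0.28 with a standard error of 0.17 (adjusted p = 0.321).

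Because the enzymes differ in place and cofactor, the makeup of malic enzyme RNA was compared within each library, as the share of each gene in the summed TPM of the 3. Me3 made up 39.1%, 42.7% and 37.0% in the knockout libraries, against 17.3%, 19.0% and 13.4% in the control libraries. Me1 made up 30.3%, 21.5% and 26.4% in the knockout libraries, against 44.4%, 39.6% and 46.3% in the control libraries. Me2 made up 30.6%, 35.7% and 36.6% in the knockout libraries, against 38.2%, 41.4% and 40.3% in the control libraries. For each of the 3 genes the groups did not overlap on TPM. On estimated counts in place of TPM the Me2 shares overlapped, with a difference of -2.50 percentage points (exact permutation p = 0.5). The difference in means was 23.0 percentage points for Me3, -17.3 for Me1 and -5.68 for Me2. The two-sided exact permutation p was 0.1 for each of the malic enzymes, the smallest that 3 against 3 libraries allow. It was 0.133 after adjustment over 4 shares. An exact permutation test by sign flips, with libraries paired by replicate number, gave p = 0.25 for each of the 3 genes. The 3 shares are parts of a single total, so their differences are not separate results. The levels of Me1 and Me2 themselves did not fall, with log2 fold changes of 0.28 and 0.61 (neither called).

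When only transcripts annotated as protein coding were counted, a choice made after seeing the transcripts, Me3 was a small part of the malic enzyme RNA. Its share was then 3.96%, 3.10% and 2.01% in the knockout libraries, against 0.452%, 0.761% and 0.772% in the control libraries, still without overlap. The difference in means fell to 2.36 percentage points for Me3 and to -6.26 for Me1. For Me2 it turned to 3.90, with 54.9 ± 3.35% in knockout libraries and 50.9 ± 4.84% in control libraries (SD, n = 3 each, exact permutation p = 0.5). On either count Me1 and Me2 together held more of the malic enzyme RNA than Me3 did in each of the 6 libraries.

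**Figure D3:**
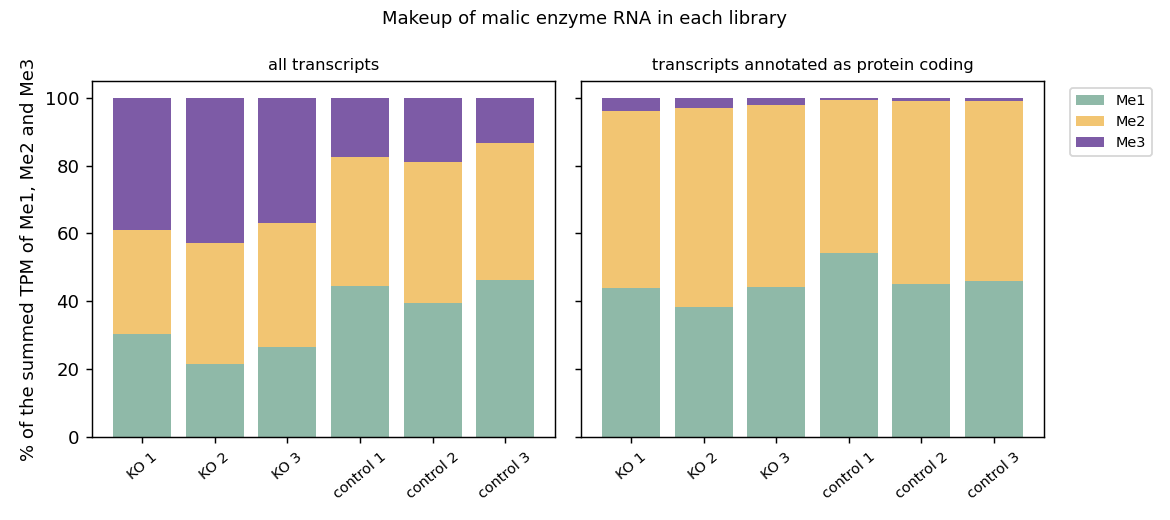
Share of Me1, Me2 and Me3 in their summed TPM in each of the 6 libraries, over all transcripts (left) and over transcripts annotated as protein coding (right). Over all transcripts Me3 holds 37.0% to 42.7% in the knockout libraries and 13.4% to 19.0% in the control libraries, and over coding transcripts at most 3.96%.

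Pcx, on chromosome 19 (4510472 to 4621752, plus strand), supplies the oxaloacetate with which a cycle begins. It had 131.7, 160.4 and 138.5 CPM in the knockout libraries, against 150.7, 185.0 and 134.0 CPM in the control libraries. The groups overlapped, and the log2 fold change was -0.13 with a standard error of 0.16 (adjusted p = 0.666). Most Pcx reads lay on Pcx-204, which held 97.4%, 94.8% and 94.1% in the knockout libraries, against 91.2%, 91.7% and 93.4% in the control libraries. These shares did not overlap (exact permutation p = 0.1, adjusted over the 10 genes 0.5). The leading transcript of Slc25a11 did not overlap either, with 93.6 ± 0.315% in knockout and 94.8 ± 0.699% in control libraries (SD, n = 3 each). Its exact permutation p was also 0.1, the smallest that 3 against 3 libraries allow, and 0.5 after adjustment.

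The remaining Pcx reads were mostly on Pcx-201, a coding transcript of 21 exons that also begins at the upstream start. Pcx-201 had 2.52, 7.19 and 8.13 CPM in the knockout libraries, against 13.1, 15.1 and 8.70 CPM in the control libraries. Its groups did not overlap, with a ratio of means of 0.484, and it was not tested on its own. Over all tested genes, 34.8% did not overlap. Salmon divides reads between Pcx-201 and Pcx-204, both of 21 exons, by estimate, so the level of each is less certain than the gene sum. Pcx-202, which begins at the internal start, had 13.9, 15.0 and 0 estimated reads in the knockout libraries and 0 in each control library, so the groups overlapped.

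Mdh1, on chromosome 11 (21556787 to 21572367, minus strand), reduces oxaloacetate to malate in the cytosol, the substrate of ME1. Its transcripts that match the annotation held only a small part of its reads: the authors' scaled gene values summed to 9.67 times the matched reads for Mdh1, against 0.976 to 1.02 times for the other 9 genes. The matched transcripts gave 24.3, 25.02 and 22.9 CPM in the knockout libraries and 14.6, 19.6 and 24.0 CPM in the control libraries (log2 fold change 0.31, standard error 0.19, adjusted p = 0.343). The authors' scaled gene values were 5511, 5312 and 4768 in the knockout libraries, against 4100, 4424 and 4911 in the control libraries. Knockout library 3 lay within the control range. With limma on the log2(value + 1) scale the difference was 0.22 (adjusted p = 0.353), in a fit that called 8.45% of the genes tested, and the authors' deposited table gives 0.18 (adjusted p = 0.417).

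The NADP-dependent isocitrate dehydrogenases, which release carbon from isocitrate, were not called. Idh1 is cytosolic and peroxisomal and lies on chromosome 1 (65158616 to 65186500, minus strand). It had 33.2, 30.5 and 35.1 CPM in the knockout libraries, against 28.6, 39.4 and 48.7 CPM in the control libraries. The control libraries spread on both sides of the knockout libraries, and the log2 fold change was -0.24 with a standard error of 0.20 (adjusted p = 0.471). Idh2 is mitochondrial and lies on chromosome 7 (80094846 to 80115392, minus strand). It had 152.2, 185.8 and 134.7 CPM in the knockout libraries, against 162.9, 156.2 and 132.8 CPM in the control libraries. The groups overlapped, with a log2 fold change of 0.06 and a standard error of 0.17 (adjusted p = 0.840). Idh2 made up 85.7 ± 2.20% of the summed TPM of Idh1 and Idh2 in knockout libraries and 83.8 ± 4.64% in control libraries (SD, n = 3 each, exact permutation p = 0.7).

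The carriers that move these acids across the inner mitochondrial membrane were not called either. Slc25a1, the citrate carrier on chromosome 16 (17925223 to 17928219, minus strand), had 65.7, 70.8 and 68.8 CPM in the knockout libraries, against 74.3, 83.2 and 75.0 CPM in the control libraries. Each knockout library lay below each control library. The log2 fold change was -0.18 with a standard error of 0.12 (adjusted p = 0.371).

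Slc25a10, the dicarboxylate carrier on chromosome 11 (120491840 to 120499187, plus strand), had 12.1, 13.5 and 11.5 CPM in the knockout libraries, against 8.64, 13.005 and 12.7 CPM in the control libraries. The groups overlapped, with a log2 fold change of 0.11 and a standard error of 0.21 (adjusted p = 0.772). Slc25a11, the carrier that exchanges malate for oxoglutarate, lies on the same chromosome (70644196 to 70647479, minus strand). Its level was 53.9, 63.2 and 51.5 CPM in the knockout libraries, against 48.9, 56.3 and 52.4 CPM in the control libraries. These groups overlapped as well, with a log2 fold change of 0.10 and a standard error of 0.13 (adjusted p = 0.681).

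**Figure D4:**
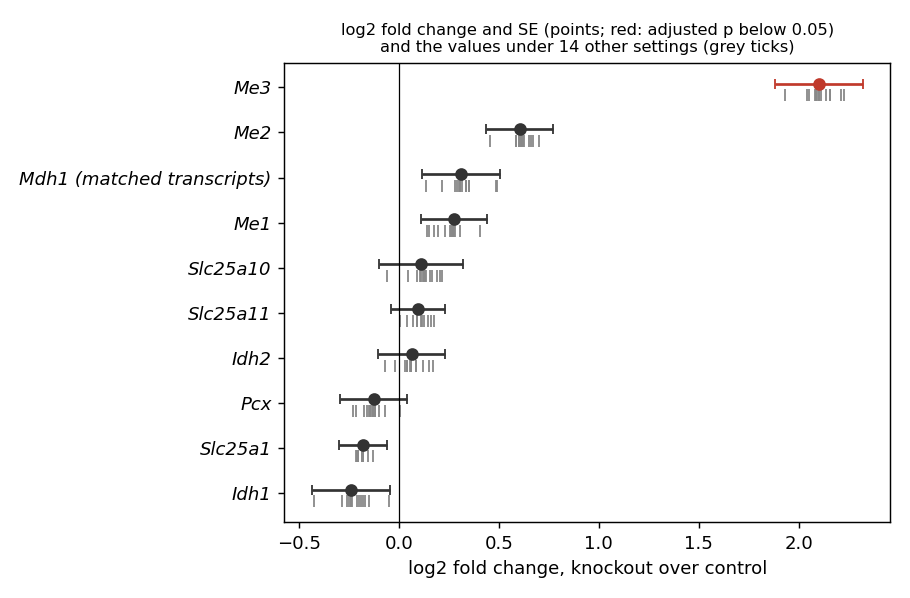
Log2 fold change of each gene, knockout over control, with its standard error (points and bars) and the values under 14 other settings (grey ticks). Me3 lies between 1.93 and 2.22 under the other settings and Me2 between 0.46 and 0.70, and every other gene between -0.42 and 0.49.

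In level per length, Idh2 was the highest of the genes that could be ranked, Mdh1 being left out. In the knockout libraries the mean order was Idh2 (115 ± 14.3 TPM), Slc25a1 (60.6 ± 11.4 TPM), Slc25a11 (44.2 ± 6.89 TPM), Pcx (40.7 ± 6.29 TPM), Idh1 (19.5 ± 4.81 TPM), Me3 (15.8 ± 4.64 TPM), Me2 (13.6 ± 3.71 TPM), Me1 (10.9 ± 5.13 TPM) and Slc25a10 (7.86 ± 1.35 TPM; all SD, n = 3). Slc25a11 and Pcx, and each pair of neighbours from Idh1 down to Slc25a10, differed by less than the larger of their SDs. Within libraries, Slc25a11 was above Pcx, Idh1 above Me3, Me3 above Me2 and Me2 above Me1 in 3 of 3 knockout libraries. Of these pairs only Me1 and Slc25a10 changed places, in knockout library 2. In the control libraries the mean order was Idh2 (91.4 ± 10.98 TPM), Slc25a1 (56.1 ± 3.38 TPM), Pcx (36.0 ± 2.74 TPM), Slc25a11 (32.9 ± 1.68 TPM), Idh1 (17.5 ± 4.71 TPM), Me1 (7.43 ± 1.71 TPM), Me2 (6.83 ± 1.36 TPM), Slc25a10 (5.72 ± 1.08 TPM) and Me3 (2.78 ± 0.332 TPM; all SD, n = 3). Here Me1 and Me2, and Me2 and Slc25a10, differed by less than the larger of their SDs. Within libraries, Me2 was above Slc25a10 in 3 of 3 control libraries, and Me1 fell below Me2 in control library 2. Pcx was above Slc25a11 in control libraries 1 and 2, but below it in control library 3 (32.9 against 34.7 TPM). Me3 was above Me1, Me2 and Slc25a10 in 3 of 3 knockout libraries and below them in 3 of 3 control libraries. For the coding transcript of Me3 alone the level was 1.08, 0.456 and 0.511 TPM in the knockout libraries and 0.0531, 0.0930 and 0.104 TPM in the control libraries, below each of the other 9 genes.

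Of 95 other genes around these reactions, listed by role with some results of these data known, 90 were tested, 9 rose and 6 fell in the knockout. These are 10% and 6.67% of those tested, against 4.10% called higher and 5.84% called lower over all tested genes, and the counts depend on single libraries, as given at the end of the lists. Their median log2 fold change was 0.15, against 0.006 over all tested genes. Among 18 genes of pyruvate supply and oxidation 2 rose and 2 fell. Pdk4, the kinase that turns off pyruvate dehydrogenase, had 11.3, 12.04 and 17.0 CPM in the knockout libraries, against 74.6, 41.3 and 59.4 CPM in the control libraries. All knockout libraries were below all control libraries, and Pdk4 fell by 2.12 on the log2 scale (standard error 0.25, adjusted p = 0.00337). Pklr, a pyruvate kinase of liver and islets, fell by 1.01 (adjusted p = 0.0216), while Pkm, the other pyruvate kinase gene, rose by 0.63 (adjusted p = 0.0403) and Pdhb, a pyruvate dehydrogenase subunit, by 0.61 (adjusted p = 0.0377). The replicate block ended the call of Pkm (adjusted p = 0.0582), and without the filter on low counts neither Pkm (adjusted p = 0.0529) nor Pdhb (adjusted p = 0.0519) passed. The list held 1 to 3 called genes when each library was left out and 2 with the acinar covariate.

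In the tricarboxylic acid cycle 4 of 16 genes rose and none fell, against 4.10% of all tested genes called higher. This count was 1, 2 and 2 without knockout library 1, 2 and 3 in turn, 0, 0 and 1 without control library 1, 2 and 3, and 1 with the acinar level as a covariate. The 4 genes were Idh3a (log2 fold change 0.75, adjusted p = 0.0184) and Idh3b (0.67, adjusted p = 0.0187), subunits of the NAD-dependent isocitrate dehydrogenase, and Sdhc (0.90, adjusted p = 0.0374) and Sdhb (0.74, adjusted p = 0.0396), subunits of succinate dehydrogenase. Of 13 tested genes that feed or drain the cycle, 1 rose, Oxct1, which activates ketone bodies (0.80, adjusted p = 0.0387). Among 8 genes of the redox shuttles 1 fell, Slc25a13, an aspartate-glutamate carrier (-1.40, adjusted p = 0.0177), and among 12 tested other carriers it and Ucp2 fell. Ucp2, which carries C4 acids out of the mitochondrion, had 122.4, 92.4 and 132.6 CPM in the knockout libraries, against 370.3, 302.5 and 285.9 CPM in the control libraries. All knockout libraries were below all control libraries, with a log2 fold change of -1.46 (standard error 0.19, adjusted p = 0.0042).

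Among 11 tested genes of cytosolic citrate use 1 rose. Acss2, which makes acetyl-CoA from acetate, had 77.1, 83.2 and 74.1 CPM in the knockout libraries, against 27.0, 42.03 and 26.2 CPM in the control libraries. The groups did not overlap, with a log2 fold change of 1.30 (standard error 0.20, adjusted p = 0.00738). Among 17 other genes of NADPH supply and use, Aldh1l2 (-1.68, adjusted p = 0.027) and Mthfd2 (-0.65, adjusted p = 0.0331), both of mitochondrial folate metabolism, fell, and Txnrd2, the mitochondrial thioredoxin reductase, rose (0.81, adjusted p = 0.037). An offset for transcript length ended the calls of Aldh1l2 (adjusted p = 0.0592), Mthfd2 (adjusted p = 0.085), Oxct1 (adjusted p = 0.0635) and Slc25a13 (adjusted p = 0.0532), which left 11 pathway genes called. Pdk4, Ucp2 and Acss2 passed whichever library was left out (6 of 6 fits), and the calls of the other 12 genes were less stable. Slc25a13 passed in 4 of the 6 fits, Idh3b in 3, Idh3a and Pklr in 2, and Pkm, Oxct1, Sdhb, Aldh1l2, Mthfd2 and Txnrd2 in 1, while Pdhb and Sdhc passed in 0. The number of genes called was 15 with all libraries, and 7, 10 and 5 without knockout library 1, 2 and 3 in turn, and 7, 3 and 7 without control library 1, 2 and 3. With the acinar level as a covariate 5 of these genes were called, and Acss2 was not among them (adjusted p = 0.052).

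**Figure D5:**
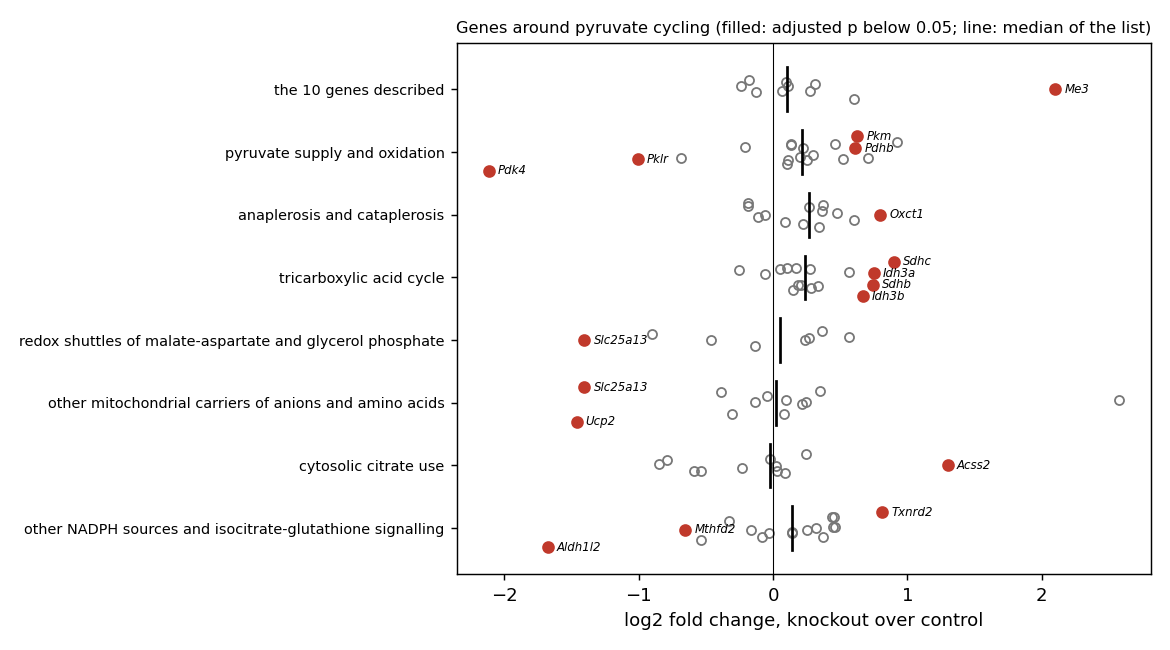
Log2 fold change, knockout over control, of the 10 genes and of 7 lists of related genes, each circle a gene, filled where the adjusted p was below 0.05, with the median of each list as a line. Me3 at 2.10 is the highest called gene, and Pdk4 at -2.12 the lowest.

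Across the 6 libraries, the genes whose log2 CPM was most like that of Me3, among 11596 genes of at least 5 mean CPM, were Ift57 (Pearson r = 0.995), Tbc1d19 (r = 0.995), Galns (r = 0.994), Myof (r = 0.993) and Ccdc141 (r = 0.993). These values share the libraries and the difference between the groups, so they are descriptions. The log2 fold changes of the genes were 0.82 for Ift57, 0.91 for Tbc1d19, 0.60 for Galns, 2.05 for Myof and 2.75 for Ccdc141.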

How the data were processed

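Poly(A) RNA of whole islets was sequenced from 3 Dpy30 knockout and 3 control mice. Per the submitters' processing notes the reads were handled with Trimmomatic, Salmon and DESeq2 on GRCm38 and mm10; their versions and settings were not given in the sources used here. Per the file headers, the authors deposited 1 Salmon table per library with estimated counts and TPM per transcript. They also deposited a table of scaled gene values, a signal whose scaling is not stated, and a table of log2 fold changes and p-values.

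Estimated counts were summed per gene by GENCODE vM21 (139852 of 140948 transcripts matched, with 99.6% to 99.7% of the reads) and rounded to whole numbers. The knockout was compared with the control by edgeR 4.0.16 (R 4.3.3): TMM, filterByExpr with a minimum count of 10, the quasi-likelihood test, and Benjamini-Hochberg adjustment over 16430 genes at 0.05. Shares were compared by exact permutation tests. Alternatives were DESeq2 1.42.0, limma-voom (limma 3.58.1), DESeq2 size factors, no filter, a length offset, an acinar covariate, a replicate block and each library left out. Counting coding transcripts alone, and limma on the authors' scaled gene values (mean of at least 10, pseudocount 1), were added after seeing the data. TPM are relative to a library total that holds differing shares of insulin RNA, so TPM were compared between genes within libraries.

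Libraries with the same replicate number deviated together (r = 0.427, 0.135 and 0.196), each above the 0.1 that the rule for pairing asks. Knockout library 2 and control library 3, whose numbers differ, reached r = 0.14. The main fit and the main exact permutation tests did not use this pairing, which entered only in alternatives. It comes from the data and the shared number only. The members and gene lists were chosen with earlier results of these data known. Named pathway genes are, per list, up to 4 called genes with the smallest p. Promoters are RefSeq windows on GRCm38.p6. The tests were checked on simulated data.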

Additional observations from a re-analysis of the deposited data

How the results depend on the processing

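Me3 was called in 14 of 14 alternative settings, with adjusted p of 1.36e-15 to 0.0215. Me2 was called in 2 of 14, with the replicate block (log2 fold change 0.62) and DESeq2, so that 2 members were called with the replicate block and 2 with DESeq2, against 1 otherwise. The replicate block changed no other member's call, and among the pathway genes named Pkm lost its call (adjusted p = 0.0582). Over all genes 1634 were called, 2635 with DESeq2, 560 with the acinar covariate and 737 to 1330 when each library was left out. The cause was not tested, and those last fits also held fewer libraries. The pathway genes called numbered 15, against 5 with the acinar covariate, 11 with the length offset and 3 to 10 when each library was left out.

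For the shares of malic enzyme RNA, estimated counts in place of TPM gave differences of 16.0 percentage points for Me3 and -2.50 for Me2, whose groups then overlapped, and coding transcripts alone gave 2.36 for Me3, -6.26 for Me1 and 3.90 for Me2. Leaving out each library moved the difference in the Idh2 share between -0.553 and 4.07.

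Uncalled log2 fold changes turned sign when a library was left out: Pcx ran from -0.23 to 0.0073 (positive without control library 2), Idh2 from -0.0699 to 0.17 (-0.0699 without knockout library 2, -0.02 without control library 3) and Slc25a10 from -0.0597 to 0.21 (negative without control library 1). The share of reads on the leading transcript did so for Me1 (-0.298 to 6.00 percentage points), Me2 (-1.48 to 0.0991) and Slc25a1 (-0.0321 to 3.19). In the control libraries the 7 Me3 transcripts share 102 to 122 reads, which limits what can be said of each.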
